A study of Mus musculus with 24 samples.

Results

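The genes described here encode the heat shock proteins, their co-chaperones and heat shock factors of mouse brain microvessels. They were chosen by symbol among the protein-coding rows of the expression table: the HSP90, HSP70, HSP110, HSP60, HSP10 and small heat shock protein genes, the J-domain genes (Dnaja, Dnajb and Dnajc), the subunits of the chaperonin CCT, the BAG co-chaperones and Hsf1 and Hsf2, each with a mean above 5 normalised read counts. This gave 82 of the 14287 protein-coding genes above that mean, and no protein-coding match lay at or below it. The 3 members nearest to the limit were Cct6b, Dnajb13 and Dnajb3, which were listed at 1 to 17 in the 24 libraries and carry little information.

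Male C57BL/6J mice aged 10 to 12 weeks underwent either 60 min of transient middle cerebral artery occlusion (tMCAO) with a filament, followed by reperfusion, or sham surgery in which the filament was withdrawn at once. Microvessel fragments were isolated 24 h or 7 days later from the hemisphere on the side of surgery (ipsilateral) and from the other hemisphere (contralateral), which gave 8 groups: sham and tMCAO, each ipsilateral and contralateral, each at 24 h and 7 days. Each group had 3 libraries, and each library was made from 3 pooled hemispheres, so p-values measure the spread between pools. The fragments came from whole hemispheres and hold endothelial cells with pericytes, astrocyte endfeet and other attached cells, so infarcted and spared tissue were mixed, and the study set aside samples it judged to be outliers before these 24 libraries were analysed.

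Molecular chaperones bind unfolded protein chains and use ATP, directly or through partners, to fold them, hold them or pass them on. HSP70 proteins work with J-domain proteins, which deliver the substrate and start ATP hydrolysis, and with nucleotide exchange factors such as the HSP110 and BAG proteins, whereas HSP90 matures kinases and receptors, and the ring-shaped CCT (cytosol) and HSP60 with its lid HSP10 (mitochondria) enclose the chain. When unfolded protein builds up in the cytosol, the factor HSF1 binds heat shock elements (HSE) in the promoters of these genes, and unfolded protein in the endoplasmic reticulum acts through the endoplasmic reticulum stress element (ERSE). In ischaemic brain the inducible HSP70, encoded by Hspa1a and Hspa1b, is a long-used marker of stressed cells.

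The following stretches of promoter are shown because they carry the letters of these elements. Of their genes, Hspa5, Hspe1, Hsph1, Cct5 and Hspb1 were called at 24 h. Hspa1a, Hsp90b1, Dnajc3 and Dnajb6 are shown for the element alone and were not called there. Dnajb6 had a log2 fold change of 0.08 ± 0.14 (adjusted p = 0.676). They are the reference sequence of RefSeq on GRCm38.p6, written in the direction of the gene, with the element in capitals. The first set holds the ERSE, searched on both strands as CCAAT and CCACG with any 9 bases between.
Hspa5, chr2:34772020-34772048, plus strand: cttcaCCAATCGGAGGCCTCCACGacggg
Dnajc3, chr14:118937822-118937850, plus strand: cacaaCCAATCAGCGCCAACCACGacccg
Hsp90b1, chr10:86705633-86705661, minus strand: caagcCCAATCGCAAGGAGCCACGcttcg
Hsp90b1, chr10:86705528-86705556, minus strand, the same element in the opposite direction: gagtgCGTGGTGAGGCACGATTGGtgagt

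The second set holds paired heat shock units, searched as GAANNTTC and TTCNNGAA, each of which reads the same on both strands.
Hspe1, chr1:55088053-55088082, plus strand: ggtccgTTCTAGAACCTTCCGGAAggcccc
Dnajb6, chr5:29735844-29735872, plus strand: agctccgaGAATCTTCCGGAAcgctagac
Hsph1, chr5:149636351-149636380, minus strand: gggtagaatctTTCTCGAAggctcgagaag
Cct5, chr15:31601862-31601891, minus strand: acagcggccgaTTCCAGAAgctactctgcg
Hspb1, chr5:135887811-135887840, plus strand: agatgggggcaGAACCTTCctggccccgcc
Hspa1a, chr17:34972157-34972406, minus strand: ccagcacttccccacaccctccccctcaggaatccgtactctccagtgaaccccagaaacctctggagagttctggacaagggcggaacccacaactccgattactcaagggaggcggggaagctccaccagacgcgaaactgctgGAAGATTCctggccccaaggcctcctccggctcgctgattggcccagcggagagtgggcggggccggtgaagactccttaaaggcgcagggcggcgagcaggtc

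The stretch of Hspe1 lies between Hspe1 and Hspd1, which are transcribed away from each other, and counts in the promoters of both. The promoter of Hspa1b differed from that of Hspa1a at 3 of 250 bases. Of the 67 members with a promoter in the table (250 bases before the start), 15 (22.4%) held at least 1 of the paired units, against 14.5% of 27025 genes. The longer run, GAANNTTC followed by NNGAA, was found in 3 members, Dnajb6, Hspd1 and Hspe1 (4.48%, against 0.514% of all genes), and the ERSE in 3, Dnajc3, Hsp90b1 and Hspa5 (4.48%, against 0.130%). Some of these stretches lie inside annotated exons, and a match of letters is not evidence that a factor binds there.

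Values are normalised read counts, that is, reads divided by a size factor per library. The totals of the 24 libraries lay between 15924780 and 18787932. The labelled tissue was checked against 10 endothelial marker genes, all of them present, which summed to 365228 to 574410 in the ipsilateral libraries. At 24 h all 8 neutrophil and monocyte markers were higher after tMCAO than after sham surgery (summed 3508 to 6701 against 347 to 1320). At that time 5 of 9 neuronal, 5 of 7 astrocyte and 2 of 10 endothelial markers were lower. The endothelial sums lay below sham at 24 h (365228 to 401062 against 412994 to 512263) and overlapped with sham at 7 days. Pericyte and smooth muscle sums lay below sham at 24 h (64628 to 118238 against 120081 to 130488) and 7 days (81164 to 115631 against 132538 to 140797). Of these 8 markers, 1 was called lower at 24 h and 0 at 7 days. At 7 days 8 of 9 neuronal markers were lower (2273 to 2916 against 5655 to 8516) and all 6 proliferation markers tested were higher (324 to 427 against 65 to 74), while 4 of 7 choroid plexus markers (704 to 3235 against 15953 to 29130) and 3 of 7 astrocyte markers (9856 to 13311 against 15473 to 32430) were lower, and 2 of 8 neutrophil and monocyte markers were higher (936 to 5011 against 351 to 1882). Library 1 of the contralateral tMCAO group at 7 days stood apart, with summed neuronal markers of 16337. In such mixed tissue fewer cells of a type and less RNA per cell cannot be told apart, and the part of cell composition in the results below was not tested.

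In the sham libraries the order of levels, as normalised read counts per kb of transcript, was led by Hsp90ab1, the constitutive cytosolic HSP90, at 7912 ± 910 (SD, n = 12), followed by Hspa8, the constitutive cytosolic HSP70, at 4734 ± 630. Next came the small heat shock protein Hspb1 at 3675 ± 795, the endoplasmic reticulum HSP90 Hsp90b1 at 3016 ± 166 and the endoplasmic reticulum HSP70 Hspa5 at 2531 ± 304. Hsp90ab1 did not overlap with the next gene (6559 to 9281 against 4120 to 6210). The ranges of Hspa8 and Hspb1 over the 12 libraries overlapped, from 4120 to 6210 and from 2775 to 5229, as did those of Hspb1, Hsp90b1 and Hspa5. Reads that match several genes were dropped, and the levels per kb were not corrected for this. Of short windows along the transcript, 74.8% for Hspa8 and 60.4% for Hspb1 occur in another annotated gene. The share was 13.8% for Hsp90b1, 4.49% for Hsp90ab1 and 0% for Hspa5. The places of Hspa8 and Hspb1 in this order, and their distance from Hsp90ab1, are therefore uncertain. The 82 genes together took 0.819% to 0.930% of the normalised reads in the sham libraries, and 1.12% to 1.15% in the 3 ipsilateral tMCAO libraries at 24 h. At 7 days after tMCAO the ipsilateral share was 0.864% to 0.953%.

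The comparison of tMCAO with sham surgery in the ipsilateral hemisphere asks what the occlusion changed at each time. At 24 h, 18 of the 82 members rose (22.0%) and 3 fell (3.66%), against 10.0% and 8.23% of the 15982 genes tested. A gene was called when its limma p-value, adjusted by Benjamini-Hochberg over all genes tested, was under 0.05 and it differed more than 1.5-fold, all on the log2(value + 1) scale. The median log2 fold change of the members was 0.20, and that of all genes -0.02. In 39 members (47.6%) the 3 tMCAO libraries all lay above the 3 sham libraries, which was so for 25.0% of all genes. In 11 members (13.4%) they all lay below, against 24.1% of all genes. With each library centred on its median gene, a shift of -0.063 in every log2 fold change, 12 members rose and 4 fell. Counts with centring or other settings, here and below, are given without the share of all genes under that setting. They show how the calls shift and do not show a trait particular to the members. Of the 18 that rose, 7 were CCT subunits, 3 Dnajc genes, and 2 the mitochondrial HSP60 and HSP10, with 1 each among the HSP90, HSP70, HSP110, small heat shock protein and Dnajb genes, and Hspbp1.

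**Figure D1:**
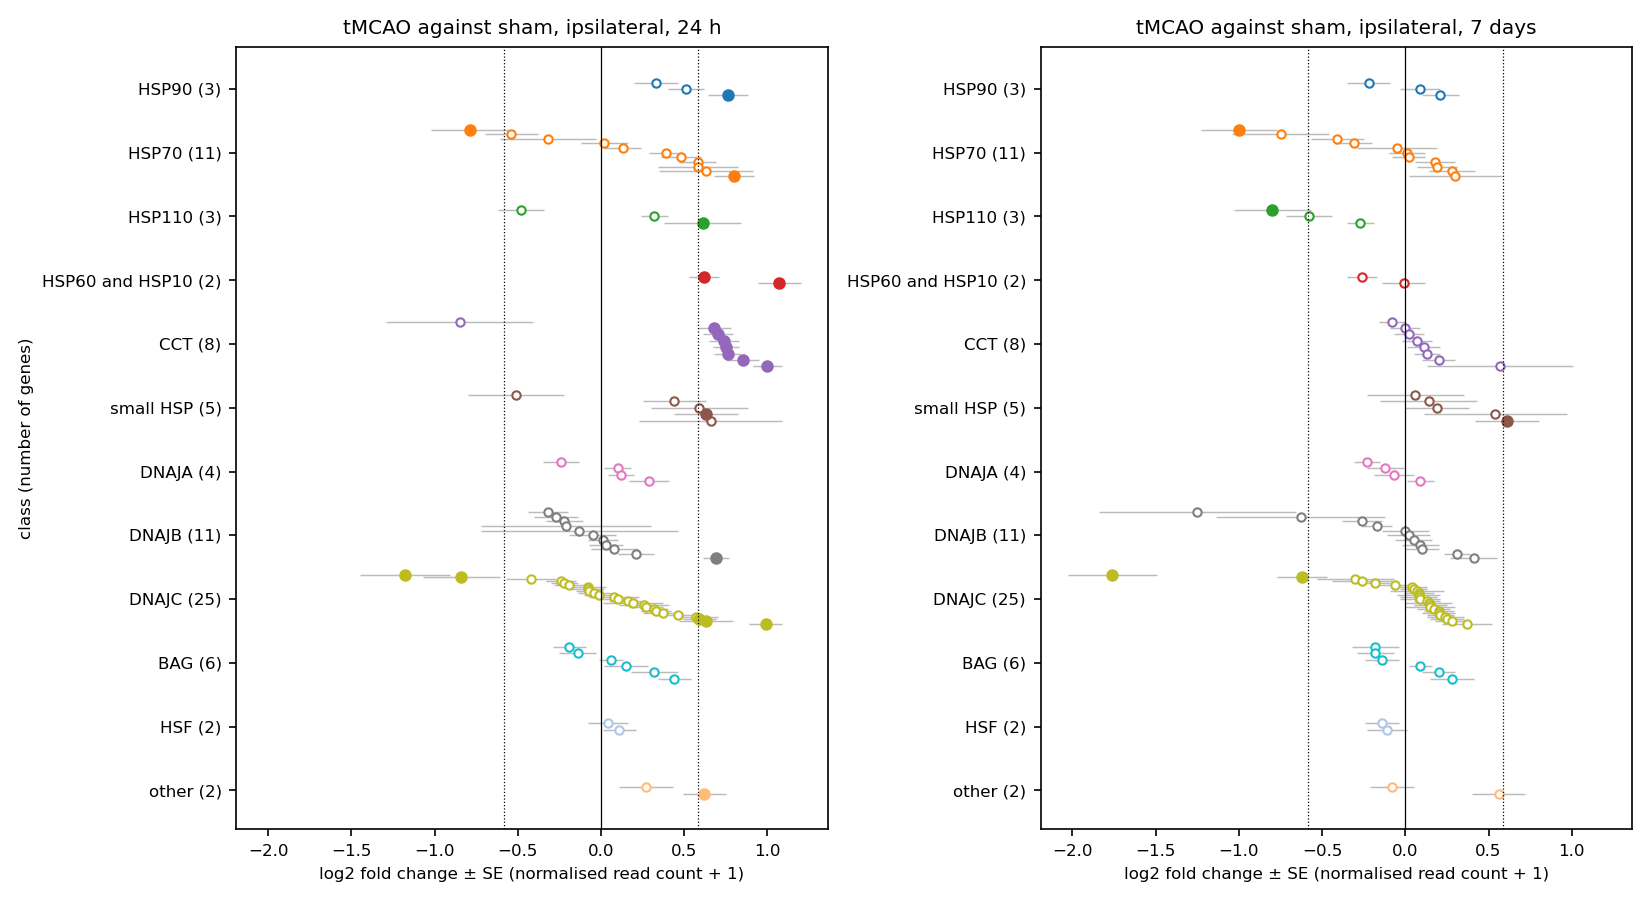
Log2 fold changes (x axis, ± SE) of the 82 genes between tMCAO and sham ipsilateral libraries at 24 h (left) and 7 days (right), 1 point a gene, by class (y axis). Filled points passed the test, and dotted lines mark the limit of 1.5-fold in each direction: at 24 h 7 of the 8 CCT points stand beyond it on the right, and at 7 days none does.

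CCT, also called TRiC, folds actin and tubulin among other proteins, and 7 of its 8 subunit genes in the list rose at 24 h. Cct3 (GRCm38, chr3:88297116-88321767, plus strand) read 2008, 2115 and 2295 after sham surgery and 4638, 4465 and 3782 after tMCAO. Each tMCAO library was above every sham library, a log2 fold change of 1.0 ± 0.09 (SE, adjusted p = 2.80e-07). The others rose by similar amounts. Their log2 fold changes were 0.85 for Cct2, 0.76 for Cct5, 0.75 for Cct8, 0.74 for Cct7, 0.70 for Cct4 and 0.68 for Tcp1, which encodes the alpha subunit, with SE of 0.08 to 0.10 and adjusted p-values up to 6.08e-05. None of these 7 groups of libraries overlapped, and each gene was called whichever library was left out. The remaining member of the class, Cct6b, is a variant subunit known from testis and read 1, 3 and 5 after tMCAO against 7, 6 and 4, too few to judge (adjusted p = 0.145). Its ubiquitous counterpart Cct6a was outside the list because the table gives it the biotype processed transcript; looked up after the other values were seen, it read 3920, 4024 and 3649 after tMCAO against 2016, 2112 and 2135 (log2 fold change 0.89 ± 0.10, adjusted p = 4.13e-06).

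In mitochondria HSP60 (Hspd1) and its co-chaperonin HSP10 (Hspe1) form the folding chamber. Hspe1 (chr1:55088132-55091307, plus strand) read 237, 266 and 240 after sham surgery and 586, 506 and 480 after tMCAO. All 3 tMCAO libraries lay far above the sham libraries, and the log2 fold change of 1.07 ± 0.13 (adjusted p = 7.48e-06) was the largest of the 82. Hspd1, which shares the stretch of promoter shown above, read 1134, 1226 and 1250 against 1766, 1929 and 1835, without overlap, and rose by 0.62 ± 0.09 on the log2 scale (adjusted p = 5.03e-05). The mitochondrial HSP70 Hspa9, which pulls proteins in through the import channel, had a log2 fold change of 0.58 ± 0.11 (adjusted p = 5.58e-04), just under the limit. Dnajc15 and Dnajc19, J-domain proteins at that channel, rose by 0.63 and 0.59. These smaller rises sat near the limit on the fold change: Hspd1 and Dnajc15 lost the call without sham library 1 or tMCAO library 2 (ranges of 0.57 to 0.65 and 0.52 to 0.73 over the 6 fits without a library), and Dnajc19 without sham library 2 or 3 or tMCAO library 2 (0.56 to 0.64).

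Among the cytosolic chaperones, Hsp90ab1 (chr17:45567775-45573271, minus strand) read 16529, 17928 and 19175 after sham surgery and 31177, 33328 and 26497 after tMCAO, which is 1.69-fold (log2 fold change 0.76 ± 0.12, adjusted p = 1.64e-04). The inducible HSP90 gene Hsp90aa1 read 2033, 2010 and 2342 against 2775, 2793 and 2441, without overlap. It had the smaller log2 fold change of 0.33 ± 0.13, which missed the threshold (adjusted p = 0.057). Hspa8 read 9863, 10489 and 11633 against 14714, 14602 and 15134. Its libraries did not overlap, and its log2 fold change of 0.48 ± 0.12 had an adjusted p of 0.00462, but it stayed under the limit on the fold change. Hspbp1, a nucleotide exchange factor of HSP70, rose by 0.62 ± 0.13 (adjusted p = 0.00118), and lost the call without sham library 1 or 3 or tMCAO library 2 (0.55 to 0.73).

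The inducible HSP70 genes gave no call at 24 h. Hspa1a read 238, 212 and 309 after sham surgery and 610, 279 and 308 after tMCAO. Hspa1b read 184, 173 and 291 against 518, 264 and 254. For both, library 1 after tMCAO stood far above the others, and the rest overlapped with the sham libraries. The log2 fold changes of 0.58 ± 0.24 and 0.63 ± 0.28 had adjusted p-values of 0.0757 and 0.0864, and without that library they were 0.23 and 0.30. Hspa1a was called when library 2 of the tMCAO group was left out, and Hspa1b without sham library 3 or tMCAO library 3. Reads that match several genes were removed by the authors, and 66.3% of the 50-base windows of Hspa1a and 62.3% of those of Hspa1b occur in another annotated gene, mostly in each other, so the level of either is uncertain. Usual partners of these proteins had smaller values: the log2 fold changes were 0.21 for Dnajb1, the main J-domain protein of the heat shock response, 0.29 for Dnaja1 and 0.32 for Bag3 (adjusted p-values of 0.156, 0.0626 and 0.10).

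Hsph1, the HSP110 that exchanges nucleotides on HSP70, read 654, 813 and 1012 after sham surgery and 1214, 1316 and 1206 after tMCAO. The groups did not overlap, but the sham libraries spread widely, and the rise of 0.61 ± 0.23 (adjusted p = 0.0475) was called in 1 of the 6 fits that left out a library, the one without sham library 3 (0.46 to 0.77 over the 6). Its relatives had log2 fold changes of 0.32 ± 0.08 for Hspa4 (adjusted p = 0.00633) and -0.48 ± 0.14 for Hspa4l (adjusted p = 0.0156), both under the limit on the fold change and in opposite directions.

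In the endoplasmic reticulum, Hspa5 (BiP, the HSP70 of that compartment) read 8185, 10753 and 11169 after sham surgery and 16838, 17770 and 17513 after tMCAO. The tMCAO libraries were closely spaced and all above the sham libraries, with a log2 fold change of 0.80 ± 0.12 (adjusted p = 7.09e-05). Its J-domain partner Dnajb11 rose by 0.69 ± 0.08 (adjusted p = 4.74e-06), and Hsp90b1 read 11291, 13010 and 11940 against 7743, 9372 and 8305, a log2 fold change of 0.51 ± 0.11 that stayed under the limit (adjusted p = 0.0018). Other members of the compartment, picked after their values were seen, had smaller values: the log2 fold changes were -0.01 for Dnajc3, an inhibitor of the stress kinase PERK, -0.08 for Dnajc10, a disulphide reductase, and -0.22 for Dnajb9, which helps in the removal of misfolded protein, none with an adjusted p under 0.05. Of the 3 members with the ERSE shown above, 1, Hspa5, was thus called.

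Small heat shock proteins hold unfolding proteins in large assemblies without ATP. Hspb1 (HSP25 in mice) read 2580, 2506 and 3184 after sham surgery and 5010, 4544 and 3321 after tMCAO, of which the lowest tMCAO library was just above the highest sham library. It rose by 0.63 ± 0.19 (adjusted p = 0.0178) and was called in 2 of the 6 fits without a library, those without sham library 3 or tMCAO library 3 (0.50 to 0.80 over the 6). Further, 60.4% of its windows occur in other annotated genes, chiefly the pseudogene Hsp25-ps1. Hspb6 and Hspb7, known from muscle, read 602 and 528 in library 1 after tMCAO against 165 and 83 in library 2, with overlap and adjusted p-values of 0.126 and 0.246. Their log2 fold changes of 0.59 and 0.66 were 0.09 and 0.03 without library 1, in which the markers of ciliated cells were also highest (summed 568, against 63 to 281 in the other 23 libraries). Hspb8, which acts with Bag3, had a log2 fold change of 0.44 ± 0.19 (adjusted p = 0.0838), and Hspb2 one of -0.51 ± 0.29 (adjusted p = 0.186).

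**Figure D2:**
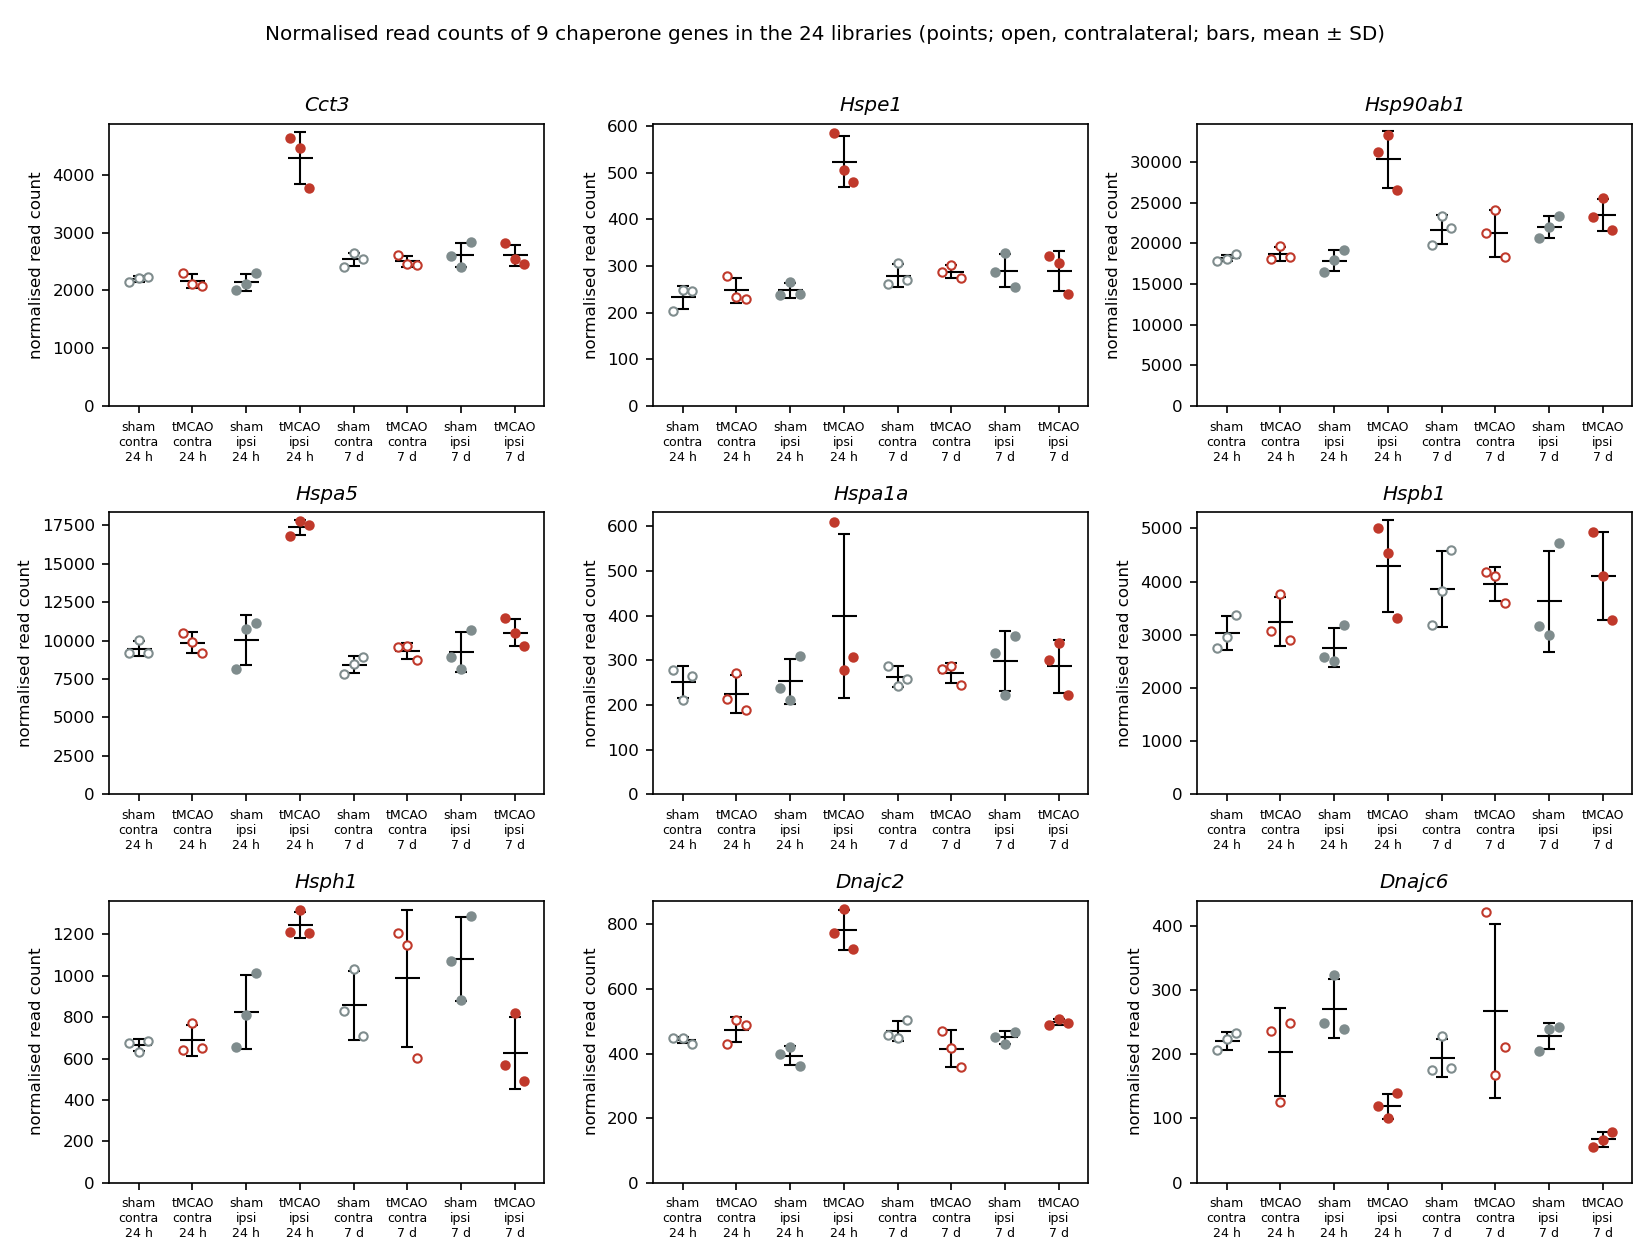
Normalised read counts (y axes, from 0) of 9 genes in the 8 groups (x axes), with 1 point a library, open for contralateral and filled for ipsilateral, and bars for the mean ± SD of 3 libraries. For Cct3, Hspe1, Hsp90ab1, Hspa5 and Dnajc2 the 3 ipsilateral tMCAO libraries at 24 h stand above all 21 others, for Hspa1a 1 library does, and Dnajc6 is lowest in the ipsilateral tMCAO libraries at 7 days, at 56 to 79.

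Among the 40 J-domain genes, 3 of 25 Dnajc genes rose (12.0%) and 2 fell (8.0%), shares close to the 10.0% and 8.23% of all genes. Of 11 Dnajb genes 1 rose, and none of the 4 Dnaja genes was called, with limma p-values under 0.05 before adjustment for 2 of these 4. Dnajc2, a J-domain protein at the ribosome's exit for new chains, read 400, 419 and 362 after sham surgery and 774, 849 and 724 after tMCAO. This rise (1.98-fold, log2 fold change 0.99 ± 0.10, adjusted p = 1.11e-06) was called whichever library was left out. Dnajc6 encodes auxilin, a mainly neuronal J-domain protein that directs HSP70 to strip clathrin from vesicles, lies at chr4:101496648-101642799 on the plus strand and read 249, 324 and 240 after sham surgery against 119, 100 and 139 after tMCAO. It fell by 1.18 ± 0.27 on the log2 scale (adjusted p = 0.00331), beside the 5 of 9 neuronal markers that were lower (summed 2677 to 3409 against 5920 to 6438). Dnajc28 fell by 0.84 ± 0.23 (adjusted p = 0.0102), and among the HSP70 genes Hspa12a, a distant relative of the family, fell from 633, 801 and 547 to 399, 289 and 466 (log2 fold change -0.79 ± 0.23, adjusted p = 0.0141). Both lost the call without sham library 2 or tMCAO library 2 (-1.05 to -0.62 for Dnajc28 and -0.94 to -0.60 for Hspa12a over the 6 fits).

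The 6 BAG genes and both heat shock factors gave no call at 24 h, with limma p-values under 0.05 before adjustment for 2 and 0 of them. Among the BAG genes the log2 fold changes ran from -0.19 for Bag4 to 0.44 for Bag1 (adjusted p = 0.00342, under the limit on the fold change). Hsf1 read 662, 651 and 695 after sham surgery and 735, 796 and 645 after tMCAO, and Hsf2 read 271, 241 and 257 against 277, 273 and 240. These levels say nothing about the activity of the factors, which is set on the protein. Of the 15 members with a paired heat shock unit, 6 were called higher at 24 h (Cct2, Cct5, Hspb1, Hspd1, Hspe1 and Hsph1). This stands beside 18 of the 82 members (22.0%) and 10.0% of all genes. The 82 include these 15 and also members not searched, because a promoter was at hand for 67 only. Hspd1 and Hspe1 share the same stretch. Whether the 15 differ from the other members was not tested. The 31 members outside the rule for naming genes had log2 fold changes from -0.54 (Hspa2) to 0.57 (Dnajc25), with an adjusted p under 0.05 for 9. The rule names each member called against sham and the extremes of each class. The absence of calls among the 31 therefore follows from the rule.

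Of 49 other genes of protein folding tested, from a separate list, 12 rose and 1 fell at 24 h, against 10.0% and 8.23% of all genes tested. Their median log2 fold change was 0.33. All 13 are named here, most of them after their values were seen. In the endoplasmic reticulum these were the disulphide isomerases Pdia6, Pdia4 and Pdia3 (log2 fold changes of 1.04, 0.88 and 0.68), the lectin chaperone Calr (0.92), the HSP110 of the compartment Hyou1 (0.69) and the collagen chaperone Serpinh1 (1.02). In the cytosol the co-chaperone Stip1, which joins HSP70 to HSP90, rose by 0.71, Ppid by 0.60, and the prefoldin subunits Pfdn6, Pfdn1 and Pfdn4, which hand chains to CCT, by 0.70, 0.68 and 0.67. The mitochondrial HSP90 Trap1 rose by 0.63, and the factor Hsf4 fell by 0.63. The small heat shock protein Cryab read 2109 in tMCAO library 1 against 625 and 945 in the others (adjusted p = 0.692).

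At 7 days far fewer members were called. In all 1 member rose (1.22%) and 4 fell (4.88%), against 3.27% and 9.95% of all genes tested. The median log2 fold change was 0.06, and that of all genes 0.02. In 10 members (12.2%) the tMCAO libraries all lay above the sham libraries, and in 15 (18.3%) all below, against 13.4% and 16.6% of all genes. Of the 49 other folding genes limma called none, with p-values under 0.05 before adjustment for 8. No CCT gene was called either, with 0 of 8 at a limma p under 0.05 before adjustment: Cct3 read 2596, 2409 and 2830 after sham surgery and 2814, 2550 and 2458 after tMCAO, and the largest log2 fold change in the class was that of the sparse Cct6b (0.57 ± 0.44, adjusted p = 0.421). Hspe1 read 287, 328 and 256 against 322, 307 and 240, and Hspa5 8911, 8156 and 10670 against 11452, 10474 and 9651, in both cases with overlap. With centring on the median gene the counts were 2 higher and 3 lower.

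The genes that fell at 7 days were Dnajc6, Hspa12a, Hsph1 and Dnajc27. Dnajc6 read 205, 239 and 242 after sham surgery and 56, 67 and 79 after tMCAO, a log2 fold change of -1.76 ± 0.27 (adjusted p = 1.39e-04) and the largest decrease of the 82, beside the 8 of 9 neuronal markers that were lower. Hspa12a fell by 1.0 ± 0.23 (adjusted p = 0.00425) and Dnajc27, a small GTPase with a J domain, by 0.62 ± 0.15 (adjusted p = 0.00537). Dnajc6 and Hspa12a were the members lower than sham at both times. Hsph1 read 1072, 883 and 1287 after sham surgery and 567, 822 and 490 after tMCAO, so it was below sham at 7 days (log2 fold change -0.80 ± 0.23, adjusted p = 0.0184) after lying above it at 24 h. The fall of Hsph1 was called in 3 of the 6 fits without a library and lost without sham library 3 or tMCAO library 1 or 3 (-1.02 to -0.64). Dnajc27 lost the call without sham library 3 or tMCAO library 1 (-0.69 to -0.53). The other HSP110 genes, Hspa4l (-0.58 ± 0.14) and Hspa4 (-0.27 ± 0.08), had adjusted p-values of 0.00775 and 0.0253 but stayed under the limit on the fold change.

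Hspb8 was the member that rose against sham at 7 days. It read 1576, 1810 and 2625 after sham surgery and 3135, 2847 and 2955 after tMCAO, without overlap (log2 fold change 0.61 ± 0.19, adjusted p = 0.0326), but was called in 1 of the 6 fits without a library, that without sham library 3 (0.45 to 0.82 over the 6), and not with the compared groups alone in the fit. Against the contralateral tMCAO libraries at 7 days Hspb8 overlapped and was not called (0.20 ± 0.19, limma, adjusted p = 0.575). Hspb11, a protein of transport in cilia despite its name, had a log2 fold change of 0.56 ± 0.16 against sham (adjusted p = 0.0222). Hspa1a read 301, 338 and 222 after tMCAO against 317, 223 and 355, with overlap (log2 fold change -0.05 ± 0.24, adjusted p = 0.92). The members outside the rule for naming genes ran from -0.75 (Hspa1l, at 19 to 52 in these libraries) to 0.28 (Dnajc1).

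**Figure D3:**
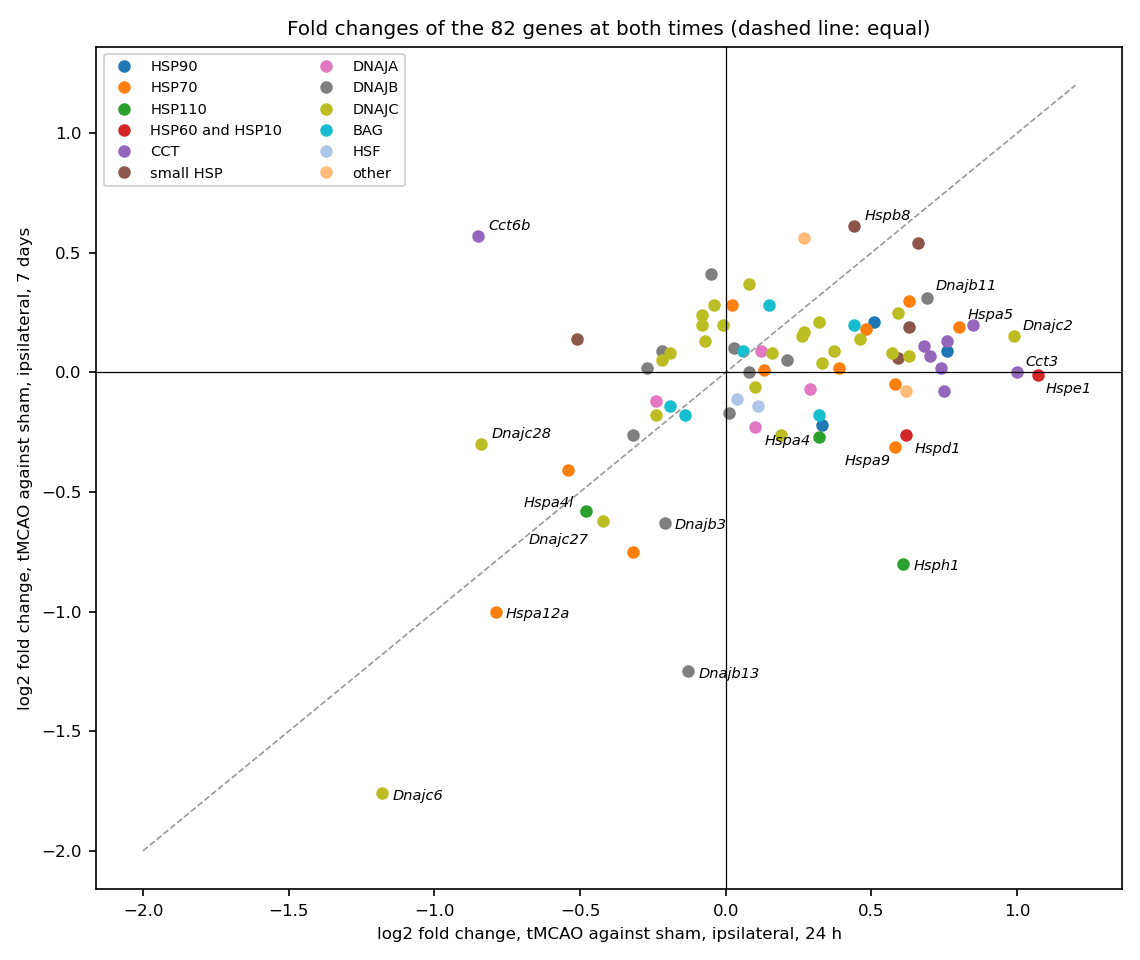
Log2 fold changes between tMCAO and sham ipsilateral libraries at 24 h (x axis) and 7 days (y axis), 1 point a gene, coloured by class, with a dashed line where both are equal. The 7 CCT subunits called at 24 h lie to the right at 0.68 to 1.0 and near 0 on the y axis, the sparse Cct6b lies at -0.85 and 0.57, Hsph1 lies at 0.61 and -0.80, and Dnajc6 and Hspa12a lie low on both axes.

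Whether the effect differed between the times was tested as an interaction, the log2 fold change at 7 days minus that at 24 h, over separate animals and separate sham groups. In it 15 members were lower at 7 days (18.3%) and 0 higher, against 5.68% and 2.43% of all genes tested, with limma p-values under 0.05 before adjustment for 31 members. The largest difference called was that of Hsph1, -1.42 ± 0.32 (adjusted p = 0.00864), followed by Hspe1 at -1.08 ± 0.18 (adjusted p = 0.00101) and Cct3 at -1.0 ± 0.12 (adjusted p = 6.28e-05). Of the 15, 13 had risen at 24 h, and Hspa9 and Hspa4 had not passed the limit there. The sham groups enter this difference. In the ipsilateral sham libraries, 7 days against 24 h, the log2 difference was 0.29 ± 0.09 for Cct3 and 0.31 ± 0.09 for Hspd1 (limma, adjusted p = 0.138 and 0.121). For Hsph1, with the largest difference called, the ipsilateral sham mean was 826.3 ± 179.4 (SD) at 24 h and 1081 ± 202.1 at 7 days. For Hspbp1 these means were 414.3 ± 57.24 and 537.7 ± 32.75. With values corrected for GC content and length, 7 members were lower and 1, Dnajb5, higher, and with centring 9 were lower. Hspe1, Cct3, Hspa9, Hspd1, Dnajc2, Cct8 and Hsph1 were called under both.

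Between the ipsilateral tMCAO libraries themselves, 8 members were lower at 7 days than at 24 h (9.76%) and 1 higher (1.22%), against 8.44% and 3.72% of all genes. The 8 were Hsph1 (log2 fold change -1.02), Hspe1 (-0.86), Dnajc6 (-0.82), Hspa5 (-0.73), Cct3 (-0.72), Hspa9 (-0.67), Dnajc2 (-0.65) and Cct8 (-0.59). The 1 that was higher was Hspb2, which read 142, 246 and 238 against 88, 89 and 156 (log2 fold change 0.92 ± 0.29, adjusted p = 0.0296). Its libraries overlapped, and it lost the call in 4 of the 6 fits without a library, as did Dnajc6, while Cct8 lost it in 2. With centring, which moved every value here by 0.105, 4 were lower.

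The contralateral hemisphere after tMCAO is a second control. This comparison shares the ipsilateral tMCAO libraries with the comparisons above, so its values are given beside them and not as a separate line of evidence. At 24 h, 17 members were higher on the ipsilateral side (20.7%) and 2 lower (2.44%), against 8.51% and 5.14% of all genes. With centring on the median gene, 11 were higher and 4 lower. The 7 CCT genes were among the 17, from 0.59 ± 0.09 for Cct4 to 0.98 ± 0.09 for Cct3, with Hspe1 at 1.08 ± 0.13, Hspa5 at 0.82 ± 0.12 and Hsp90ab1 at 0.69 ± 0.12. The 17 were not the same set as those that rose against sham. Hspb1 was not called here and overlapped (0.39 ± 0.19, limma, adjusted p = 0.139). Dnajb11 (0.52 ± 0.08), Dnajc15 (0.49 ± 0.16) and Dnajc19 (0.40 ± 0.10) stayed under the limit on the fold change. Hspa1a and Hspa1b passed here, with log2 fold changes of 0.75 ± 0.24 and 0.94 ± 0.28 (adjusted p-values of 0.029 and 0.0172), and each lost the call without ipsilateral library 1 or contralateral library 1 or 3 (0.40 to 0.96 and 0.61 to 1.17 over the 6 fits). In the contralateral tMCAO libraries Hspa1a read 214, 271 and 188. The 2 lower ones were the sparse Cct6b, called in 1 of the 6 fits without a library, and Dnajc28, called in 2. Dnajc6 and Hspa12a, lower than sham at 24 h, overlapped here and were not called. Their log2 fold changes were -0.71 ± 0.27 and -0.52 ± 0.23 (limma, adjusted p-values of 0.0611 and 0.103). At 7 days 4 members were lower on the ipsilateral side (4.88%, against 9.98% of all genes) and 0 higher (against 3.03%), with limma p-values under 0.05 before adjustment for 11 members. The 4 were Dnajc6 (-1.87 ± 0.27), Hspa12a (-0.92 ± 0.23), Dnajc27 (-0.66 ± 0.15) and Hspa4l (-0.64 ± 0.14). Dnajc27 and Hspa4l lost the call without contralateral library 1, the one with the high neuronal markers, and also without ipsilateral library 1 (Dnajc27) or 3 (Hspa4l), with ranges of -0.80 to -0.44 and -0.78 to -0.49 over the 6 fits. Hspa12a lost it without ipsilateral library 1 (-1.05 to -0.71).

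The 6 groups other than the ipsilateral tMCAO ones served as controls. In 6 comparisons among them (hemispheres of sham mice, contralateral tMCAO against contralateral sham, and 7 days against 24 h after sham surgery) limma called 0 of the 82 members, against 0% of all genes in 3 of them and 0.0313%, 0.476% and 0.332% in the contralateral comparison at 7 days and between sham times on the ipsilateral and contralateral side. Before adjustment, limma p-values under 0.05 were found for 5 and 0 members between sham hemispheres at 24 h and 7 days. They were found for 0 and 7 between contralateral tMCAO and sham libraries. Between sham libraries of the 2 times they were found for 23 and 17 on the ipsilateral and contralateral side. Counts before adjustment, here and above, are given without the share of all genes at that limit. They therefore do not show a trait particular to the members. In 19 members (23.2%, against 11.9% of all genes) the ipsilateral sham libraries at 7 days all lay above those at 24 h. Over the 18 control libraries the coefficient of variation was 9.72% for Cct3, 10.3% for Hspa5 and 26.0% for Hsph1, and the lowest of the 82 was that of Bag6, at 4.97%.

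**Figure D4:**
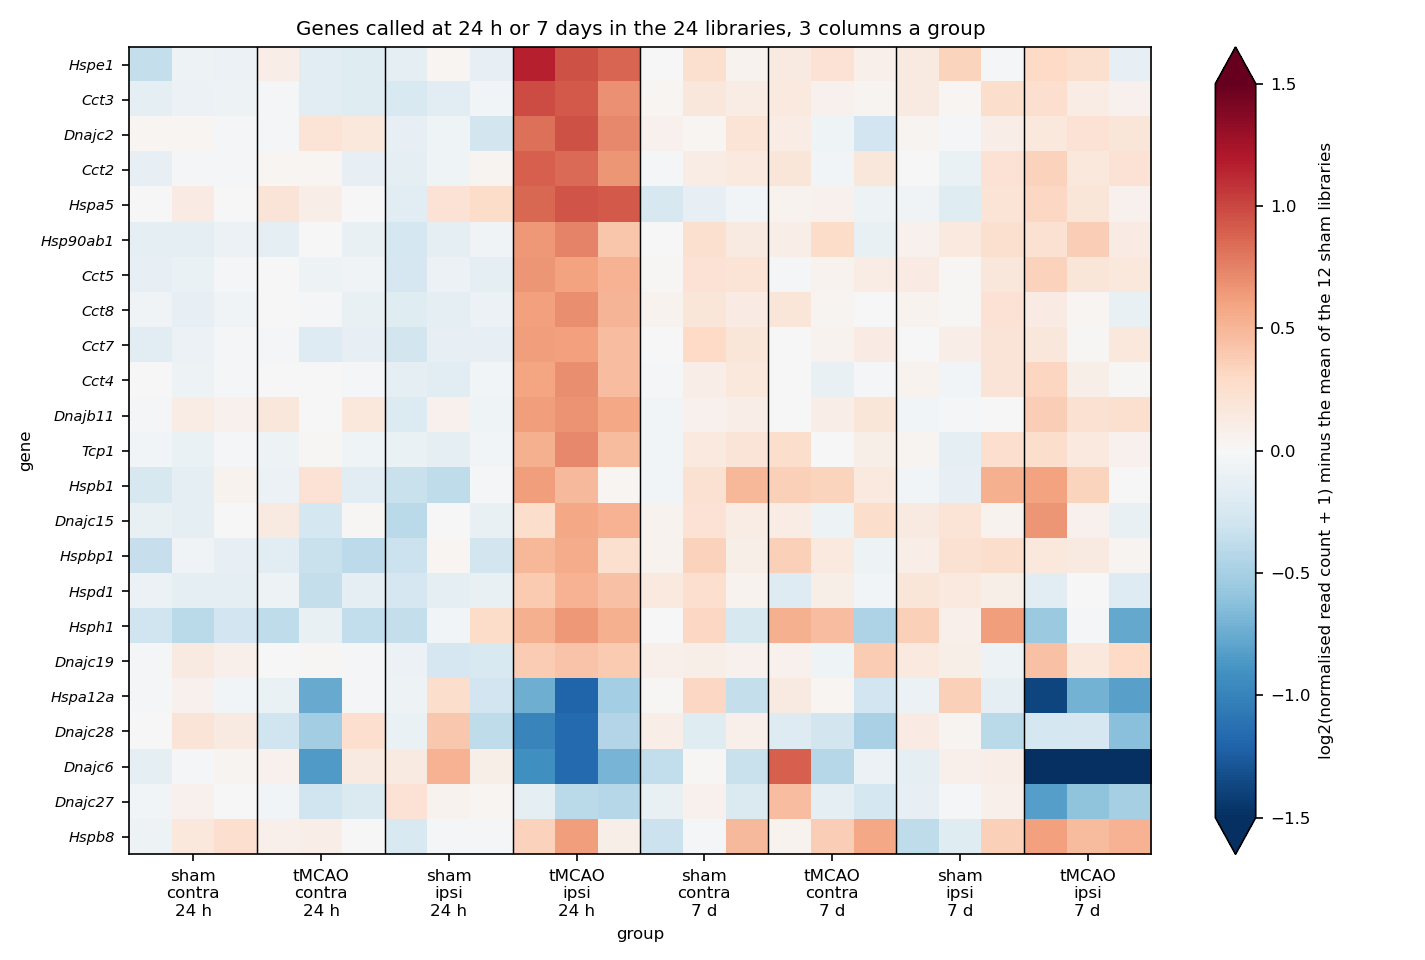
The 23 members called at 24 h or 7 days (rows) in the 24 libraries (columns, 3 a group), coloured by log2(normalised read count + 1) minus the mean of the 12 sham libraries, with the scale ending at 1.5 in each direction. Differences ran from -1.99 to 1.17: the red block is the ipsilateral tMCAO group at 24 h, and the darkest blue is Dnajc6 in the ipsilateral tMCAO group at 7 days.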

How the data were processed

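Microvessel RNA of 24 libraries was sequenced. The authors aligned the reads to mm10 with STAR, dropped reads that matched several genes, scaled each library's gene counts with DESeq2 and rounded them; these deposited values are treated here as a score, not as raw counts (submitters' notes: STAR 2.5.2b, featureCounts 1.5.1, DESeq2 1.6.2). Library totals were 15924780 to 18787932. Values plus 1 were put on the log2 scale and fitted with limma 3.58.1 (R 4.3.3, mean-variance trend, all 8 groups) over the 15982 genes with a mean above 5, with Benjamini-Hochberg adjustment, after a test on simulated data. Calls needed an adjusted p under 0.05 and a change past 1.5-fold; count models were not run on these scaled, rounded values. Tables and figures used Python 3.11.15, numpy 2.4.6, pandas 2.3.3 and matplotlib 3.10.9. Genes named are a fixed core, the extremes of each class and the called members; 13 other folding genes are named as the text says. The members, lists and rules were chosen with earlier results of these data known. Same-numbered hemispheres of sham mice deviated together (correlations of 0.145 to 0.410 at 24 h and 0.325 to 0.467 at 7 days). Same-numbered ipsilateral sham libraries of 24 h and 7 days, which are different animals, gave 0.00921 to 0.411. The correlations therefore do not show by themselves that the numbers pair the hemispheres, and the labels do not state it. The main fit did not pair them, and blocking on the pool left 0 members called there. Alternatives were other pseudocounts and filters, centring, GC and length correction, fewer groups, replicate blocks and leaving out libraries.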

Additional observations from a re-analysis of the deposited data

Results flagged for a closer look

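For 15 members the difference between tMCAO and sham ipsilateral libraries was not the same at 24 h and 7 days, by limma's test of the difference itself. Each value is the log2 fold change at 7 days minus that at 24 h. It was -1.42 for Hsph1, which lay above sham at 24 h and below it at 7 days. Both of these Hsph1 calls against sham were lost in fits without 1 library, as given above. Against the contralateral hemisphere Hsph1 was higher at 24 h (0.86 ± 0.23, limma, adjusted p = 0.00945). At 7 days it was not called there (-0.63 ± 0.23, adjusted p = 0.0694), and the libraries overlapped. For the mitochondrial chaperones the difference between the effects was -1.08 for Hspe1, -0.89 for Hspa9 and -0.88 for Hspd1. For the CCT subunits it was -1.0 for Cct3, -0.82 for Cct8, -0.72 for Cct7, -0.65 for Cct2, -0.63 for Cct4 and -0.63 for Cct5. For the others it was -0.84 for Dnajc2, -0.70 for Hspbp1, -0.67 for Hsp90ab1, -0.61 for Hspa5 and -0.60 for Hspa4. The values of 8 of them, Cct3, Cct7, Cct8, Dnajc2, Hspa9, Hspd1, Hspe1 and Hsph1, were called in each of the 12 fits that left out 1 library.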

How the results depend on the processing

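Counts are of members called, without the share of all genes under each setting, so they show only how the calls shift. Leaving out 1 library gave 13 to 19 higher and 1 to 4 lower at 24 h against sham, 0 to 1 and 2 to 5 at 7 days, 13 to 18 and 0 to 3 between hemispheres at 24 h, 0 to 1 and 2 to 5 at 7 days, 0 to 3 and 7 to 9 between the times after tMCAO, and 0 to 1 and 10 to 17 for the difference between the effects. Without the limit on the fold change they were 30 and 7, 5 and 8, 27 and 6, 1 and 5, 2 and 23, and 0 and 18 in that order. With centring they were 12 and 4, 2 and 3, 11 and 4, 1 and 4, 1 and 4, and 0 and 9. Corrected for GC and length they were 17 and 3, 1 and 3, 13 and 1, 0 and 2, 1 and 5, and 1 and 7. With the compared groups alone they were 18 and 3, 0 and 3, 15 and 0, 0 and 2, 0 and 8, and 0 and 13. With a minimum mean of 20, 1 was lower between hemispheres at 24 h, where the sparse Cct6b is left out. The cause of the other shifts was not tested. A pseudocount of 0.5 and no filter changed no count, the control comparisons stayed at 0 throughout, and no call among the named genes changed direction in the comparisons with sham. Values near 0 that were not called can change sign: with centring, Hsf2 went from 0.04 to -0.03 at 24 h and Hspe1 from -0.01 to 0.03 at 7 days. Calls lost at 24 h were Dnajc15, Dnajc19, Hspb1, Hspbp1, Hspd1 and Hsph1 with centring and Dnajc19, Hspa12a, Hspb1 and Hspbp1 with the GC and length correction. At 7 days Dnajc27 was lost with either, and Hspb8 and Hsph1 with the compared groups alone. Same-numbered tMCAO and sham libraries share only a number (correlations of -0.252 to -0.113 at 24 h and -0.157 to 0.15 at 7 days). For the tMCAO hemispheres the same-number correlations were all positive (0.0658 to 0.360 and 0.0593 to 0.309). Deviations from the group means cancel within each group, so a lower mean with other numbers follows from this and is no further evidence of shared pools. The labels do not state such pools and 3 of 6 correlations were under 0.1, so the main fit did not treat the hemispheres as paired. A block on the replicate number gave 17 and 3 at 24 h, losing Hsph1, and 1 and 4 at 7 days. It gave 1 and 8 between the times, and 0 and 15 for the difference. Between the tMCAO hemispheres the block instead paired same-numbered libraries as 1 pool. That paired fit gave 18 and 3 at 24 h and 0 and 5 at 7 days. With either block the control comparisons stayed at 0. Pools of 3 hemispheres, 3 libraries a group and values without raw reads limit what could be detected, chiefly for members listed below 20.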

Other observations

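Among the 49 genes of protein folding tested outside the members, 9 were lower at 7 days in the difference between the effects and 1 was higher. The shares of all genes tested were 5.68% and 2.43%. The 9 were Serpinh1, Calr, Stip1, Pdia4, Ppid, Pdia6, Hyou1, Pfdn4 and Trap1, from -0.95 for Serpinh1 to -0.61 for Trap1 on the log2 scale. The tissue-restricted factor Hsf4 was the 1 higher in that comparison, at 0.71. Cct6a, the CCT subunit left out by its biotype, had a log2 fold change of -0.02 ± 0.10 at 7 days and a difference between the effects of -0.90 ± 0.14 (limma, adjusted p = 5.25e-04). These genes were picked after their values were seen.

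Several members share sequence with pseudogenes or close relatives, and their levels are uncertain because reads matching several genes were dropped. The share of 50-base windows found in another annotated gene was 74.8% for Hspa8, 71.4% for Hspa1l, 58.5% for Hsp90aa1, 44.8% for Hspd1, 44.8% for Hspe1 and 41.9% for Dnajb6. In library 1 of the contralateral tMCAO group at 7 days, Dnajc6 read 421 against 168 and 212 in the other two libraries.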
